A study of Mus musculus with 20 samples.

Results

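The cytosolic ribosomal protein genes, whose products form the 2 subunits of the ribosome together with ribosomal RNA, were followed in alveolar macrophages of mice that breathed cigarette smoke or air. They were taken by name from the deposited gene table, as symbols that start with Rpl or Rps and a digit plus Rplp1, Rplp2 and Rpsa, and without names that hold a dot or hyphen, ribosomal S6 kinases and Rps19bp1. The rule gave 84 of the 13225 genes of the table, 51 named for the large (60S) and 33 for the small (40S) subunit. Among the 84, Rpl37rt and Rps4l are annotated in GENCODE M21 as transcribed processed pseudogenes. Rplp0 is not among them, and 21 rows with dotted names, which look like ribosomal pseudogene names, were kept apart. The naming rule itself reads no measured value.

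The samples were miR-155 KO mice (strain B6.Cg-Mir155tm1.1Rsky/J) after smoke, miR-155 KO mice after air, wild type C57BL/6 mice (WT) after smoke, and WT mice after air, with 5 mice and 5 libraries in each group. Exposure lasted 4 weeks, and no label gives ages. The macrophages were sorted from lung by flow cytometry as cells positive for CD45, SiglecF and CD11c, and their RNA was sequenced after poly-A selection. The KO strain carries a targeted germline allele of Mir155, which is not limited to macrophages or to the time of exposure.

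A ribosome holds a single copy of nearly every ribosomal protein, so cells make these proteins in matched amounts, and much of that matching is done at translation and by removal of unused protein. The mRNAs begin with a run of pyrimidines at the transcription start, the TOP motif, through which mTOR and Larp1 set their translation. Alveolar macrophages clear inhaled particles and debris and secrete lysosomal and immune proteins, which the ribosomes of these cells make. MiR-155 is a microRNA that is induced in activated macrophages and lowers the mRNAs that carry its seed match.

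Of the 84 genes, 63 had an entry in the RefSeq promoter table (GRCm38.p6), with 75 windows that run 250 bases before to 50 after a start. Stretches of 80 bases, 60 before and 20 from the start onward, are shown for genes that the results below turn on. They hold the start annotated in RefSeq. Where transcription starts in these cells was not measured, so the lack of a run can reflect the annotation. Capitals mark the letters CCGGAAG, an ETS-type motif, and runs of at least 8 pyrimidines (C or T) that lie whole within 20 bases on either side of the start.
Rps27l, chr9:66946026-66946105, plus strand: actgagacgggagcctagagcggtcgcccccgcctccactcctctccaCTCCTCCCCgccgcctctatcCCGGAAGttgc
Rps27, chr3:90213629-90213708, minus strand: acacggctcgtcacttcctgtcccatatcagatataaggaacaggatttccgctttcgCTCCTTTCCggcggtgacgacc
Rpl38, chr11:114668520-114668599, plus strand: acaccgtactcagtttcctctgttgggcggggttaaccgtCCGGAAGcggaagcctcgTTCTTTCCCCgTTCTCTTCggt
Rps9, chr7:3703981-3704060, plus strand: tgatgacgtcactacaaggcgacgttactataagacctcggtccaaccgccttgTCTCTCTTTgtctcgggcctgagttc
Rps18, chr17:33955646-33955725, minus strand: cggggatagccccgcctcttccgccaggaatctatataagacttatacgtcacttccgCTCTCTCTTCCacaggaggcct
Rpl41, chr10:128549149-128549228, minus strand: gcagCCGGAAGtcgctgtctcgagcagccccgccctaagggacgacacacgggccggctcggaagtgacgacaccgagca
Rpl10, chrX:74270756-74270835, plus strand: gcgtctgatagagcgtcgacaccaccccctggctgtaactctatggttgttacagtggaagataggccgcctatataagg
Rps2, chr17:24720003-24720082, plus strand: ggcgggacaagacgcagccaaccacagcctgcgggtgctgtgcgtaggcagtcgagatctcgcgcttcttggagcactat
Rps27l and its relative Rps27 both carry a pyrimidine run near the start, and Rps27l also holds CCGGAAG. The windows of Rpl10 and Rps2 hold neither within the stretch shown. Rps27l has a further RefSeq start, not printed here, which lies downstream on the same strand.

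Over all 75 windows, CCGGAAG on either strand was present in 36% and AAGATGG, a YY1-type motif, in 16%. The same letters were present in 8.8% and 6.32% of the 32776 windows of other genes, and in 17.9% and 7.23% of the 11910 windows of other genes of the table. A pyrimidine run of at least 8 bases within 20 bases of the start, on the gene's strand, was found in 41.3% of the ribosomal protein windows, in 16% of all other windows and in 15.8% of other windows of the table. TATAAA within the 50 bases before the start was found in 1.33%, 2.63% and 1.28% of the same 3 sets. These are matches of letters, and no measurement here bears on binding.

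Ribosomal protein mRNAs made up between 2.04% and 2.45% of all reads in every one of the 20 libraries. The share was 2.23, 2.07, 2.23, 2.04 and 2.04 percent in the smoke-exposed miR-155 KO mice and 2.30, 2.04, 2.27, 2.45 and 2.19 percent in the air-exposed miR-155 KO mice. It was 2.26, 2.18, 2.43, 2.37 and 2.39 percent in the smoke-exposed WT mice and 2.15, 2.16, 2.15, 2.24 and 2.32 percent in the air-exposed WT mice. The 4 groups overlapped, the air-exposed miR-155 KO mice spread most, and the smoke-exposed miR-155 KO mice held the lowest value. Reads of the large subunit's genes were 1.18 to 1.23 times those of the small subunit's genes in every library. The RNA came from sorted pools of cells, where fewer cells of a type and less RNA per cell cannot be told apart.

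**Figure D1:**
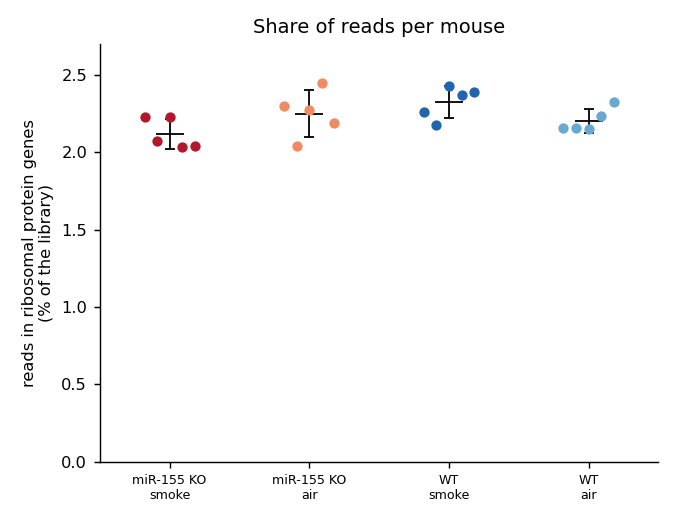
Share of each library's reads that fell in the 84 ribosomal protein genes, in percent, with 1 point per mouse and the mean ± SD of 5 mice per group. All 20 points lie between 2.04% and 2.45%, and the 4 groups overlap.

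The most abundant ribosomal protein mRNAs were Rpl4 with a mean of 936 CPM (a gene's reads scaled to the library's total), Rps3 with 756 CPM, Rplp1 with 706 CPM, Rps9 with 669 CPM and Rpl8 with 591 CPM, each over all 20 mice. Rpl4 lines the exit tunnel, Rps3 and Rps9 sit where mRNA enters the small subunit, and Rpl8 lies near the peptidyl transferase centre. Per kilobase of transcript, which corrects for length, the order was led by Rplp1 with 1415 CPM per kb, an acidic protein of the stalk that recruits elongation factors. Its partner Rplp2 followed with 944 CPM per kb, then Rps24 with 901, Rps9 with 891 and Rps12 with 779 CPM per kb. Of the 84 genes, 76 had a mean of at least 50 CPM.

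The 8 genes under 50 CPM were mostly relatives of other members. Rpl3l, the striated muscle relative of Rpl3, averaged 6.75 CPM against 440.0 CPM for Rpl3. Rpl39l, known from testis, averaged 1.44 CPM against 93.0 CPM for Rpl39, and Rpl36al 2.80 CPM against 127 CPM for Rpl36a. Rps4l had 26.0 CPM, Rpl22l1 41.6 CPM, Rpl37rt 10.9 CPM and Rpl13a 23.2 CPM. Rps27l at 75.1 CPM and Rpl7l1 at 86.3 CPM were the relatives with the highest levels.

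Rpl24, a 60S protein with no relative in the list, was the lowest of all, with 64 reads over the 20 libraries and a mean of 0.376 CPM. Of its annotated exonic bases, 71.5% also lie in exons of another gene on the same strand, and the corresponding shares were 63.1% for Rpl36al and 59.3% for Rpl13a. Rps10 had the highest such share, 91.6%, and yet measured 313 CPM per kb, and Rpl19 had 15.7% and 263 CPM per kb. No source at hand says how reads in shared exons were counted. The part of this overlap in the low value of Rpl24 was not tested. Rpl24, Rpl39l, Rpl36al, Rpl3l and Rps4l also had the largest spread between mice of a group, with SDs of 1.74, 1.73, 1.34, 0.45 and 0.30 on the log2 scale. The median SD of the 84 genes was 0.119, and 75 of them had an SD of at most 0.2.

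**Figure D2:**
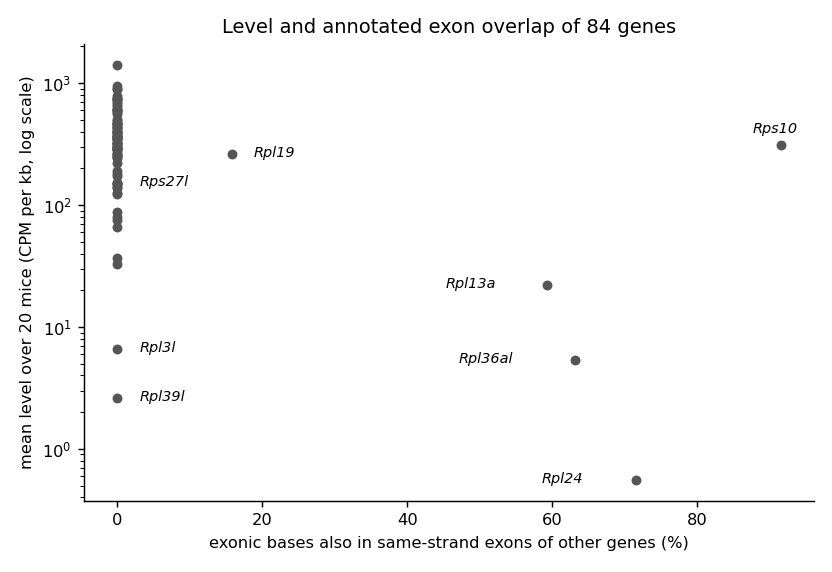
Mean level of each of the 84 genes over 20 mice, in CPM per kb on a log scale, against the percentage of its annotated exonic bases that other genes' exons share on the same strand. Rpl24, Rpl36al and Rpl13a combine a share of 59.3% or more with a low level, while Rps10 has the highest share and 313 CPM per kb.

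For 67 of the 84 genes, at least 1 other annotated transcript matched the gene's transcript at 95% identity or more over at least 50% of its length, so reads could have been split or dropped between copies. Rps2 had 27 such copies, Rpl23a 20, Rpl10 9 and Rpl41 1, and their levels are uncertain to that extent, while Rps27l had 0 under the same limits. The strand setting of the count is not given either, so reads of Rpl23a, whose exons share 55.4% of their bases with a gene on the opposite strand, cannot be told apart from that gene's. The 21 pseudogene-like rows together took 0.00191% to 0.00365% of reads in a library.

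With smoke in miR-155 KO mice, 2 ribosomal protein mRNAs were higher and 9 were lower than after air, by limma at an adjusted p under 0.05. This is 13.1% of the 84, where 15.5% of all genes were called. By direction, 2.38% of the ribosomal protein genes were higher against 7.05% of all genes, and 10.7% were lower against 8.45%. Rps2 and Rps27l were higher, and the lower genes included Rpl10, Rpl23a, Rpl26, Rpl7, Rps9 and Rps27. The median log2 change of the 84 was −0.06, against −0.01 for all genes, and 68 of them lay below 0.

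With smoke in WT mice, 12 were higher and 1 lower, which is 15.5% of the 84, where 22.4% of all genes were called. Here 14.3% were higher against 9.66% of all genes, and 1.19% were lower against 12.8%. The higher genes included Rps2, Rps16, Rps18, Rps19 and Rps27l of the small subunit and Rpl13, Rpl14, Rpl28, Rpl36, Rpl38 and Rpl41 of the large subunit, and the lower gene was Rpl10. The median change of the 84 was 0.08, against −0.02 for all genes, and 61 of the 84 lay above 0. The count moved with single mice: it was 20 without smoke-exposed mouse IIa5, 6 without IIa1 or IIb1, 5 without IIb2, IIb3 or the air-exposed mouse Ia3, and 8 without Ia4. Of the 84, 48 had a value below 0 in miR-155 KO and above 0 in WT mice, whereas 3 had the opposite pair of signs.

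**Figure D3:**
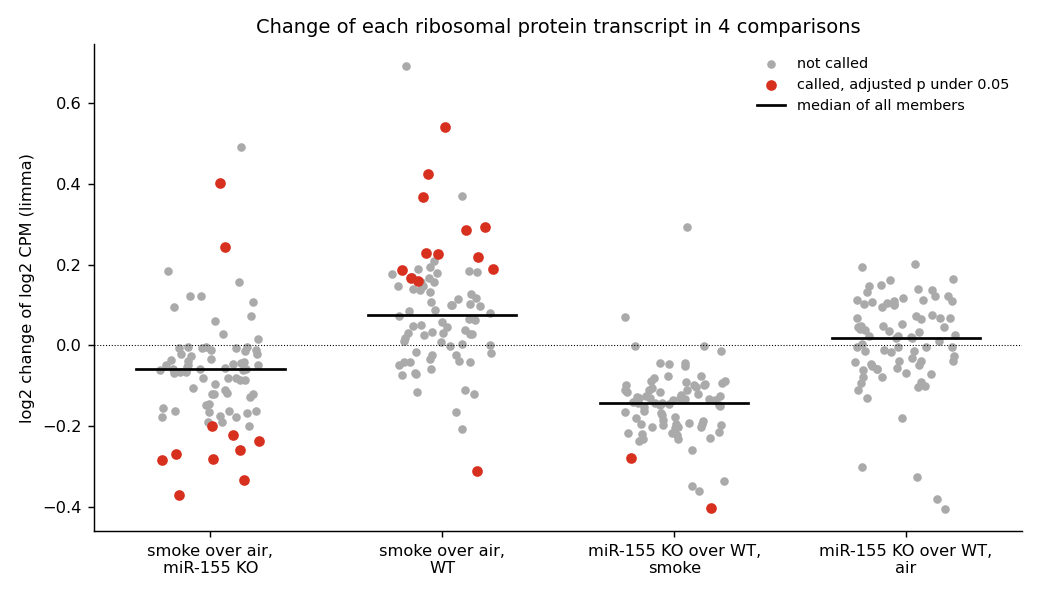
Log2 change of each ribosomal protein gene (limma, 5 mice per group) in 4 comparisons, with called genes in red and the median of all 84 as a bar. Rpl24, Rpl39l and Rpl36al are left out of the points because their spread between mice is over 1 on the log2 scale. Called genes lie mainly below 0 for smoke in miR-155 KO mice (2 above, 9 below) and mainly above 0 for smoke in WT mice (12 above, 1 below).

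The 2 smoke comparisons share no mice, and 3 ribosomal protein genes were called in both, Rps2, Rps27l and Rpl10, each in the same direction. That is 27.3% of the miR-155 KO calls and 23.1% of the WT calls. Over all genes, 1385 were called in both, or 67.5% of the miR-155 KO calls and 46.7% of the WT calls. The difference between the 2 overlaps was not tested.

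Rps2, a small-subunit protein at the mRNA entry channel, had the largest called change. It measured 378, 368, 399.9, 399.9 and 389 CPM in smoke-exposed miR-155 KO mice, against 359, 289, 333, 371 and 290.1 CPM after air in the same strain. In WT mice it measured 440.4, 359.7, 507, 439 and 482 CPM after smoke, against 309, 282, 304, 307 and 322 CPM after air. In the miR-155 KO strain the lowest smoke value lay just under the highest air value, while the WT groups did not overlap. The log2 change was 0.24 ± 0.08 in miR-155 KO mice (adjusted p = 0.0325) and 0.54 ± 0.08 in WT mice (adjusted p = 6.87e-06). The difference between the 2 changes was −0.30 ± 0.11 (adjusted p = 0.357), so the responses were not shown to differ. The miR-155 KO call was lost without the 3 air libraries with most genes at 0 reads (adjusted p = 0.104), and also on leaving out any 1 of the mice IIIb1, IIIb4, IVa5, IVb2 and IVb4 (0.0595 to 0.0997).

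Rps27l, a relative of Rps27 that is known as a p53 target, was higher after smoke in both strains and lower in miR-155 KO than in WT mice after smoke. It measured 74.8, 81.3, 73.3, 71.3 and 68.0 CPM in smoke-exposed miR-155 KO mice, against 60.6, 58.4, 56.9, 63.8 and 41.9 CPM after air in the same strain. In WT mice it measured 98.5, 94.4, 104, 93.5 and 96.4 CPM after smoke, against 68.5, 64.8, 72.2, 82.8 and 75.7 CPM after air. In each strain every smoke-exposed mouse lay above every air-exposed mouse, and in each exposure every miR-155 KO mouse lay below every WT mouse. The log2 change with smoke was 0.40 ± 0.10 in miR-155 KO (adjusted p = 0.00380) and 0.42 ± 0.10 in WT mice (adjusted p = 0.00157), and these differed by −0.02 ± 0.14 (adjusted p = 0.976). Between strains the log2 change was −0.40 ± 0.10 after smoke (adjusted p = 0.0249) and −0.38 ± 0.10 after air (adjusted p = 0.0703). The difference after smoke was called and the one after air was not, and the call was lost on leaving out any 1 of the mice IIa1, IIb1, IVa5, IVb2 and IVb4 (adjusted p = 0.056 to 0.0946). After air, Rps27l was called without miR-155 KO mouse IIIa5 (adjusted p = 0.0386).

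Rps27 itself, a protein of the small subunit's platform, was lower after smoke in miR-155 KO mice. It measured 203, 188, 196, 201 and 186 CPM in smoke-exposed miR-155 KO mice, against 273, 203, 214, 275 and 228 CPM after air. In WT mice it measured 196, 225, 217, 196 and 223 CPM after smoke, against 239.8, 228, 236, 243 and 271 CPM after air. The groups did not overlap in either strain, although in miR-155 KO mice the highest smoke value (202.99 CPM) and the lowest air value (203.24 CPM) nearly met. The log2 change was −0.28 ± 0.08 in miR-155 KO mice (adjusted p = 0.0103) and −0.21 ± 0.08 in WT mice (adjusted p = 0.0528), where it was not called. Of the reads of the pair, Rps27l held 26.2% to 30.1% in smoke-exposed miR-155 KO mice, against 15.5% to 22.3% after air. It held 29.5% to 33.5% in smoke-exposed WT mice, against 21.9% to 25.4% after air.

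**Figure D4:**
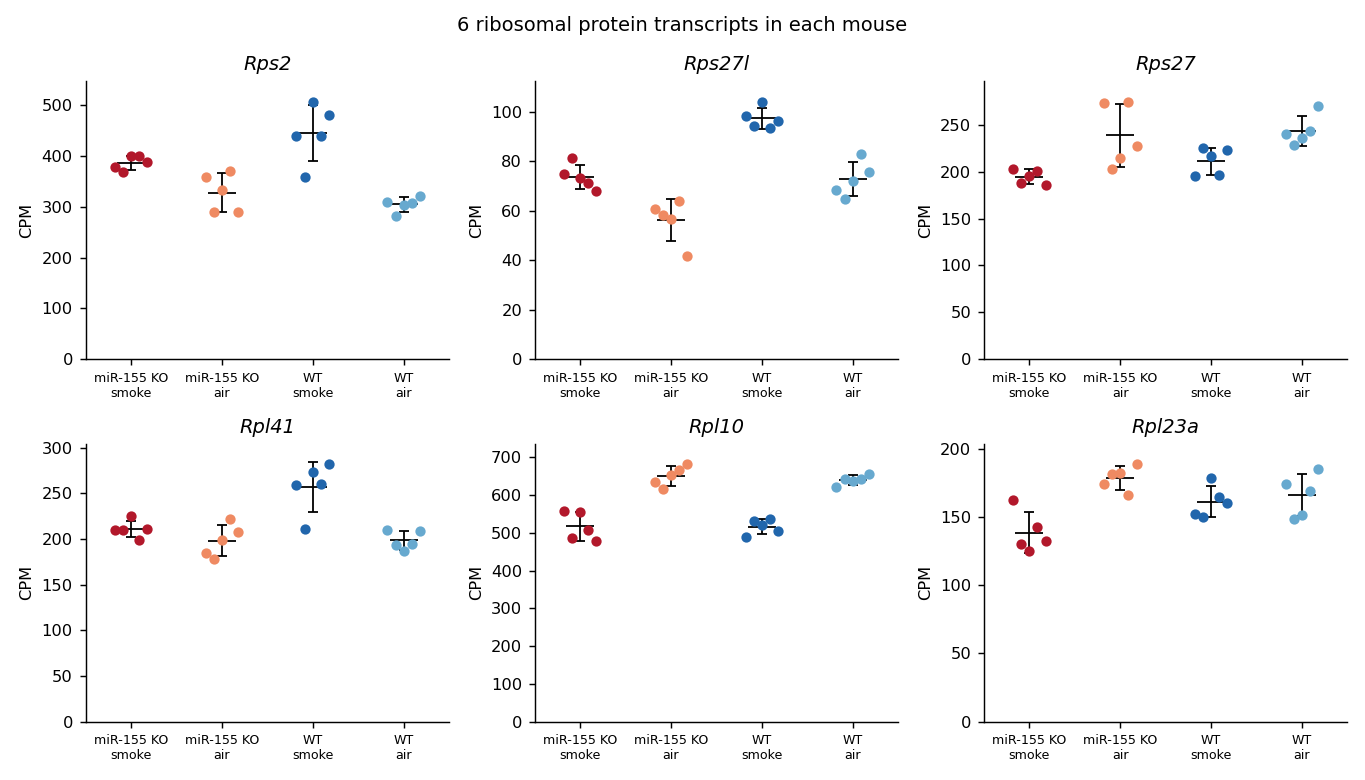
CPM of 6 ribosomal protein mRNAs in each mouse, with the mean ± SD of 5 mice per group and axes that start at 0. Rps27l is higher after smoke than after air in both strains, Rpl10 is lower after smoke in both strains, Rps27 is lower after smoke in miR-155 KO mice, where the groups nearly meet, and Rpl23a is separated by smoke in the miR-155 KO strain.

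Rpl10, an X-linked 60S protein added late in subunit assembly next to the P site, was lower after smoke in both strains. It measured 558, 486, 557, 507 and 479.6 CPM in smoke-exposed miR-155 KO mice, against 634, 615, 655, 667 and 682 CPM after air, and 490.0, 531, 521, 537 and 504 CPM in smoke-exposed WT mice, against 623, 644, 636, 642 and 656 CPM after air. The groups did not overlap in either strain. The log2 change was −0.33 ± 0.06 in miR-155 KO (adjusted p = 7e-05) and −0.31 ± 0.06 in WT mice (adjusted p = 0.000113), a difference of −0.02 ± 0.08 (adjusted p = 0.941). Between strains after smoke it differed by −0.00 ± 0.06. Of the other members of the list for the peptidyl transferase and P site region (Rpl3, Rpl8, Rpl10a and Rpl29), none was called by limma in any comparison, and 1 of the 5 was lower in each smoke comparison, Rpl10 itself.

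Rpl41, the shortest protein of the ribosome, which bridges the subunits, was higher after smoke in WT mice. It measured 209.9, 210.0, 225, 199 and 211 CPM in smoke-exposed miR-155 KO mice, against 185, 178, 198, 221 and 207 CPM after air. In WT mice it measured 259, 210.4, 274, 259.7 and 282 CPM after smoke, against 209.6, 193, 187, 194 and 208 CPM after air. The miR-155 KO groups overlapped, and the WT groups did not, although 1 smoke-exposed WT mouse (IIa5) lay near the air values. The log2 change was 0.09 ± 0.07 in miR-155 KO mice (adjusted p = 0.433) and 0.37 ± 0.07 in WT mice (adjusted p = 0.000402), and the difference, −0.27 ± 0.10, was not called (adjusted p = 0.361). After smoke, Rpl41 was lower in miR-155 KO than in WT mice, with a log2 change of −0.28 ± 0.07 (adjusted p = 0.0461) and 1 WT value inside the range of the miR-155 KO values. That call was lost in 9 of the 10 fits that left out 1 mouse, and the fit without IIa5 kept it.

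Rps18 and Rpl38 completed the 6 smallest p-values of the WT smoke comparison. Rps18, a protein of the small subunit's head, measured 298, 246, 306, 298 and 291 CPM in smoke-exposed WT mice, against 249, 237, 239, 254 and 253 CPM after air. Rpl38, which in mouse embryos is needed for translation of Hox mRNAs, measured 91.6, 93.6, 106, 98.1 and 102 CPM in smoke-exposed WT mice, against 62.9, 82.5, 94.6, 81.4 and 82.2 CPM after air. Both pairs of groups overlapped, through mouse IIa5 for Rps18 and through mouse Ib1 for Rpl38. The log2 change was 0.22 ± 0.06 for Rps18 (adjusted p = 0.0127) and 0.29 ± 0.10 for Rpl38 (adjusted p = 0.0284), whose call was lost without Ia3, IIb1, IIb2 or IIb3. The other 6 higher genes named above had log2 changes of 0.17 to 0.29 and adjusted p-values of 0.0391 to 0.0482. Each of these 6 lost its call in at least 6 of the 10 fits that left out 1 mouse of the 2 WT groups.

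In miR-155 KO mice, Rpl23a and Rpl26, which line the end of the exit tunnel, were among the lower genes. Rpl23a measured 163, 130.2, 125, 142 and 132 CPM after smoke, against 174, 182, 182, 166 and 189 CPM after air. The groups did not overlap, and the log2 change was −0.37 ± 0.08 (adjusted p = 0.000887). In WT mice the value was −0.04 ± 0.08 (adjusted p = 0.778), and the difference between strains was −0.33 ± 0.11 (adjusted p = 0.303).

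Rps9, at the mRNA entry site, measured 642, 582, 675, 583 and 573 CPM in smoke-exposed miR-155 KO mice, against 721, 649, 702, 813 and 717 CPM after air. The groups overlapped, and the log2 change was −0.24 ± 0.06 (adjusted p = 0.00764). Further lower genes had log2 changes of −0.26 ± 0.07 for Rpl26 and −0.20 ± 0.06 for Rpl7, a 60S protein.

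The air-exposed miR-155 KO libraries IIIb2, IIIb3 and IIIb4 held 1451 to 1645 genes without a read, against 259 to 1224 in the other 17. Without those 3, the air-exposed miR-155 KO group held the mice IIIa5 and IIIb1 alone, so fewer mice carried the comparison. In that fit 4 ribosomal protein genes were called for smoke in miR-155 KO mice, 1 higher and 3 lower. The higher one was Rpl36al, a row of few reads that was not called with all mice. Rpl10 and Rpl23a were called lower with and without the 3 libraries, and Rps27l had an adjusted p of 0.0576 without them.

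Groups of 5 mice did not overlap for 7 ribosomal protein genes with smoke in miR-155 KO mice, 1 higher and 6 lower, where 9.88% of all genes, 601 higher and 706 lower of 13225, had groups that did not overlap. With smoke in WT mice it was 9 higher and 2 lower, where 18.1% of all genes did not overlap, 1078 higher and 1322 lower.

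By position in the ribosome, calls can be read against those of all genes, 7.05% higher and 8.45% lower with smoke in miR-155 KO mice and 9.66% higher and 12.8% lower in WT mice. The 9 genes of the 40S head and beak held 0 calls in miR-155 KO mice, with a median log2 change of −0.05, and 3 calls in WT mice, all higher (Rps16, Rps18 and Rps19), with a median of 0.17. The 8 genes of the 60S tunnel and its exit held 2 lower calls in miR-155 KO mice (Rpl23a and Rpl26), with a median of −0.10, and 0 calls in WT mice, with a median of 0.03. The 8 genes of the 40S mRNA exit and platform held 2 lower calls in miR-155 KO mice, Rps27 among them, and 0 calls in WT mice. The 6 genes of the mRNA entry held Rps2, higher in both strains, and Rps9, lower in miR-155 KO mice. The acidic stalk (Rpl12, Rplp1 and Rplp2) and 3 proteins that bind Mdm2 (Rpl5 and Rpl11, of the 5S particle, and Rpl23) held 0 limma calls in both strains. At an unadjusted p under 0.05 they held 0 genes in miR-155 KO mice and, in WT mice, 2 of the stalk and 1 of the Mdm2-binding proteins. Of 18 genes mutated in human Diamond-Blackfan anaemia, 2 were lower in miR-155 KO mice (Rpl26 and Rps27) and 1 was higher in WT mice (Rps19). The difference between strains was not called for any of these genes.

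Between the strains after air, no ribosomal protein gene was called by limma, where 0.416% of all genes were called, 0.151% higher and 0.265% lower. At an unadjusted p under 0.05, 3 were higher and 4 lower, where 500 and 1037 of all 13225 genes were. The median log2 change was 0.02, against −0.04 for all genes, with 45 of the 84 above 0, and it lay at −0.03 without the 3 air libraries named above. Rps27l was the sole gene whose groups did not overlap, where 1.83% of all genes had groups that did not overlap.

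After smoke, the log2 change of miR-155 KO over WT mice lay below 0 for 80 of the 84 genes, with a median of −0.14 against −0.02 for all genes. The 2 called genes were Rps27l and Rpl41, both lower, or 2.38% of the 84, where 1.58% of all genes were called, 0.892% higher and 0.688% lower. At an unadjusted p under 0.05, 36 were lower and 0 higher, where 993 and 793 of all 13225 genes were. Rps19 had a log2 difference of −0.23 ± 0.06 (adjusted p = 0.0537) and Rpl38 of −0.35 ± 0.10 (adjusted p = 0.0635), and neither was called. Groups did not overlap for 6 genes, all lower, or 7.14%, where 4.24% of all genes had groups that did not overlap, 225 higher and 336 lower. The count moved with single mice: it was 0 without IIa1, IIb1, IVa5, IVb2 or IVb4, 1 without Ia4, Ib2, Ib4, IIb2, IIb3, IVa2 or IVa4, and 4 without IIa5 or IIIb1. Without IIa5, Rps19 and Rps2 were called beside Rps27l and Rpl41, and without IIIb1, Rps19 and Rpl38 were, all lower.

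The interaction, which asks whether the smoke response differs between strains, had 0 calls among the 84 and 0% among all 13225 genes by limma. At an unadjusted p under 0.05, 27 ribosomal protein genes had a lower smoke response in miR-155 KO than in WT mice, and 1 a higher one. Over all genes the counts were 569 and 733. The median interaction was −0.17, with 76 of 84 below 0, against 0.02 for all genes. Rpl36, a 60S protein, had −0.46 ± 0.14 (adjusted p = 0.283), the lowest value among the 76 genes with a mean of at least 50 CPM. No gene passed the threshold, so a different ribosomal response of the strains was not shown.

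Ribosomal protein mRNAs are short, and the changes of other genes varied with transcript length. Their median annotated length was 679.5 bases, against 2442.5 bases for genes of the table. The other coding genes compared here by length had to reach a minimum mean level, a limit not set for the ribosomal protein genes. With smoke in miR-155 KO mice, the median change was −0.06 for the ribosomal protein genes, against 0.00 for 593 other coding genes in the same length range and −0.06 for 2516 coding genes over 3000 bases. With smoke in WT mice it was 0.08 for the ribosomal protein genes, against 0.10 for the short and −0.14 for the long coding genes. Between the strains after smoke it was −0.14 for the ribosomal protein genes, against −0.12 for the short and 0.05 for the long coding genes. In the last 2 comparisons the ribosomal median lay near that of other short genes. By calls, 2.38% of the ribosomal protein genes were higher and 10.7% lower with smoke in miR-155 KO mice, against 9.44% and 13% of the 593 short genes. In WT mice 14.3% were higher and 1.19% lower, against 25.8% and 12.1% of the short genes. The share of higher calls lay above that of all genes and below that of the short genes. In WT mice 37.9% of the short, 38.9% of the long and 22.4% of all genes were called in either direction. Length and level were not separated in these shares.

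The slope, fitted to coding genes that included ribosomal protein genes, differed between libraries. A gene of the ribosomal median length was fitted at −0.12 to −0.01 on the log2 scale relative to a gene of typical length in smoke-exposed miR-155 KO mice and at −0.16 to 0.03 in air-exposed miR-155 KO mice. In WT mice it was fitted at −0.01 to 0.12 after smoke, against −0.11 to −0.05 after air. Mouse IIa5 had the lowest value of the smoke-exposed WT mice and also their lowest ribosomal share of reads, 2.18%. Mouse IIIb3 had the highest value of the air-exposed miR-155 KO mice and the highest share of all 20, 2.45%.

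With the length trend removed from each library, 2 genes were higher and 13 lower with smoke in miR-155 KO mice, where 15.6% of all genes were called in the same fit. In WT mice 3 were higher, Rps2, Rps27l and Rpl41, and 5 were lower, among them Rpl10, Rps27, Rps9 and Rpl22, and the median of the 84 was −0.04, where 20.5% of all genes were called. Between the strains after smoke, 0 were called by limma, where 1.27% of all genes were, and the median was −0.01. Rps27l then had a log2 change of −0.24 (adjusted p = 0.225) and Rpl41 of −0.10 (adjusted p = 0.582). Since ribosomal protein genes were in the fit of the trend, part of a shift they share was removed with it.

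**Figure D5:**
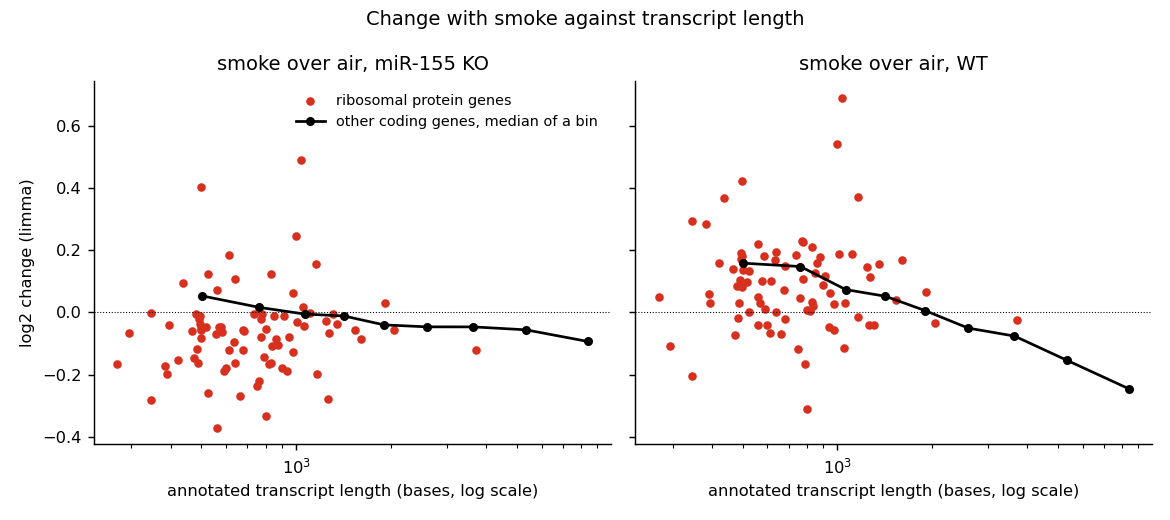
Log2 change with smoke (limma) of each ribosomal protein gene against annotated transcript length on a log scale, with the median of other coding genes in 9 length bins as a line. In WT mice the line runs downward, at 0.16 for the shortest bin and −0.25 for the longest, and in miR-155 KO mice it runs between 0.05 and −0.09. Rpl24, Rpl39l and Rpl36al are left out of the points.

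Genes that work with the ribosome were read from lists beside the 84, against the same shares of all genes, 7.05% higher and 8.45% lower in miR-155 KO mice and 9.66% higher and 12.8% lower in WT mice. Of 54 ribosome biogenesis factors, 2 were lower with smoke in miR-155 KO mice, and 1 was higher and 1 lower in WT mice. Las1l, which processes ribosomal precursor RNA, was lower in both strains, with log2 changes of −0.54 ± 0.10 in miR-155 KO and −0.41 ± 0.10 in WT mice. Bop1, of 60S maturation, was lower in miR-155 KO mice (−0.45 ± 0.12), and Nhp2, a small nucleolar particle protein, was higher in WT mice (0.47 ± 0.15). Between the strains after smoke, 51 of the 54 lay below 0, with a median of −0.16 and 0 called, and 13 had an unadjusted p under 0.05, all lower.

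Of 14 RNA polymerase I genes, which make ribosomal RNA, 1 was lower with smoke in miR-155 KO mice (Ubtf) and 4 in WT mice (Ubtf, Polr1b, Znrd1 and Taf1b), or 7.14% and 28.6% of the list. Of 12 regulators of ribosomal protein genes, 2 were lower in miR-155 KO mice, Myc with a log2 change of −0.87 ± 0.23 and Maf1, a repressor of RNA polymerase III, with −0.26 ± 0.08. In WT mice 6, or 50% of the list, were lower, among them Yy1 (−0.49 ± 0.10), Gabpa (−0.44 ± 0.10), Sp1 (−0.33 ± 0.08) and Larp4b (−0.27 ± 0.07). Yy1 is known to bind AAGATGG-type letters and Gabpa ETS-type letters of the kind counted above. Whether the changes of these regulators bear on the ribosomal protein mRNAs was not tested. With smoke in WT mice, 31.3% of the 2516 long coding genes described above were called lower, against 12.1% of the 593 short ones. In miR-155 KO mice these shares were 16.5% and 13%. Neither list was matched to other genes by transcript length or level, so the part of either in 28.6% and 50% was not tested.

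Of 29 initiation factors, 1 was lower with smoke in miR-155 KO mice, and 5 were higher and 4 lower in WT mice. Eif4a2, an RNA helicase of the cap-binding complex, had log2 changes of −0.51 ± 0.08 in miR-155 KO and −0.63 ± 0.08 in WT mice. Its relative Eif4a1 (0.26 ± 0.06) and Eif5a (0.33 ± 0.06) were higher in WT mice. After smoke, both were lower in miR-155 KO than in WT mice, Eif5a with −0.35 ± 0.06 (adjusted p = 0.00178) and Eif4a1 with −0.23 ± 0.06 (adjusted p = 0.0279). Of 18 elongation factors and other TOP mRNAs, Btf3 was lower in miR-155 KO mice, and Eef1g was higher and Pabpc1 lower in WT mice. Of 14 ribosome rescue genes, 2 were lower in each strain, Zfp598 and G3bp1 in miR-155 KO and Ankzf1 and Nemf in WT mice, or 14.3% of the list in each.

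The miR-155 guide strand, in RefSeq at chr16:84714143-84714165 on the plus strand of GRCm38.p6, is shown with its seed in capitals because its match was searched in the ribosomal mRNAs.
mmu-miR-155-5p: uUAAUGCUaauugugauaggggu
The match AGCATTA was present in the longest annotated 3′ UTR of 5 of the 82 ribosomal protein genes with one, Rps20, Rpl5, Rpl21, Rps9 and Rps19, or 6.1%. Of 11221 other genes, 9.69% held it. With a UTR between 41.1 and 1054 bases, the range that covers the middle of the ribosomal ones, 3 of 64 ribosomal protein genes held it, or 4.69%, against 2.99% of 4551 other genes. After smoke those 5 genes had miR-155 KO over WT changes of −0.14, −0.20, −0.15, −0.08 and −0.23 in that order, all below 0 and none called. Of all 84 genes, 80 lay below 0 in this comparison, with a median of −0.14. The UTRs with the match in Rps9 (875 bases) and Rpl21 (1079 bases) exceed the 751 and 899 bases of the transcripts used for length. The UTR of Rps19 (613 bases) would fill nearly all the 633 bases of its transcript used for length, with no room for the coding sequence. All of these UTRs belong to other annotated transcripts, whose share of the mRNA was not tested.

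Mir155hg, the host transcript of miR-155, was read 8 times over the 5 smoke-exposed miR-155 KO libraries, 25 times over air-exposed miR-155 KO, 48 times over smoke-exposed WT and 2 times over air-exposed WT libraries. Since the labels do not give the deleted bases, these reads do not check the genotype. Libraries held 6885680 to 11952088 reads. All 12 alveolar macrophage markers were measured, and their summed level was 28840 to 35900 CPM in every library. Chil3 made up much of that sum, with a mean of 17390 of 33220 CPM in air-exposed WT mice. With smoke, 3 were higher and 4 lower in miR-155 KO mice, where 7.05% and 8.45% of all genes were. In WT mice 2 were higher and 5 lower, where 9.66% and 12.8% of all genes were. Siglecf, the gene of a sorting marker, had log2 changes of −1.15 in miR-155 KO and −1.25 in WT mice. Car4 had 1.09 and 1.52 in the same order, so the sum hides changes of single genes.

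Genes listed as markers of other cells moved with smoke beside the ribosomal protein genes, and single genes made up much of several sums. Their calls stand beside those of all genes, 7.05% higher and 8.45% lower in miR-155 KO and 9.66% higher and 12.8% lower in WT mice. In smoke-exposed WT mice, Mmp8 averaged 187.8 CPM of a mean neutrophil sum of 239.6 CPM, and S100a9 1.73 CPM. In air-exposed WT mice, Csf1r averaged 494 CPM of a mean monocyte and interstitial macrophage sum of 670 CPM. There Epcam and Cdh1 averaged 71.5 and 87.15 CPM, and Sftpc 0.533 CPM. Of 6 measured neutrophil markers, 3 were higher and 1 lower with smoke in each strain, and their sum was 139.7 to 314 CPM after smoke against 86.8 to 136 CPM after air in miR-155 KO mice, and 159 to 359 CPM against 91.3 to 129 CPM in WT mice. Of the 2 measured lymphocyte markers, 1 was higher with smoke in miR-155 KO and 2 in WT mice, and they summed to 0.642 to 6.08 CPM after smoke against 0 to 1.26 CPM after air in miR-155 KO mice, and to 7.47 to 41.2 CPM against 0.571 to 1.71 CPM in WT mice. Of 13 monocyte and interstitial macrophage markers, 2 were higher and 4 lower in miR-155 KO mice and 5 higher and 2 lower in WT mice, with sums of 455 to 563 CPM after smoke against 632.5 to 873 CPM after air in miR-155 KO mice and 454 to 817 CPM against 587 to 751 CPM in WT mice. Of the list made for eosinophils, Epx, Prg2, Ccr3 and Il5ra were not in the table, so its values do not measure eosinophils. Its 2 measured genes went opposite ways in both strains. Ear6 was higher with log2 changes of 3.24 in miR-155 KO and 2.87 in WT mice, and Siglece was lower with −1.30 and −1.09 in the same order. They summed to 119 to 161 CPM after smoke against 71.2 to 123 CPM after air in miR-155 KO mice, and to 126 to 193 CPM against 72.0 to 82.2 CPM in WT mice. Of the 5 epithelial and stromal markers, 1 was higher and 1 lower in miR-155 KO mice (Cdh1 and Epcam), and 2 were higher and 1 lower in WT mice (Cdh1 and Kdr, and Epcam). They summed to 124 to 142 CPM after smoke against 127 to 207 CPM after air in miR-155 KO mice, and to 142 to 158 CPM against 119 to 187 CPM in WT mice. Ly6c2 and C1qa had no read in air-exposed WT mice, and S100a9 had none in air-exposed mice of either strain. Between the strains after smoke, 12 of the 13 monocyte and interstitial macrophage markers lay below 0, with a median log2 change of −1.19. Of them 1 was called lower, where 0.688% of all genes were, and 8 were lower at an unadjusted p under 0.05. The counts of all genes at that unadjusted p are given above with the strain comparison. Both lymphocyte markers lay below 0 as well, with a median of −2.61 and 0 limma calls, and 2 were lower at an unadjusted p under 0.05. Whether the reads of these listed markers came from other cells or from the macrophages was not tested, nor was their part in the ribosomal values.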

How the data were processed

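Alveolar macrophage RNA of 20 mice, 5 per group, was measured as 1 library per mouse, and groups follow the labels. Per the labels' protocols, a miRNeasy kit gave the RNA, of which 25 ng entered a TruSeq mRNA preparation. The submitters' processing notes name STAR 2.6.0c, limma and the build GRCm38.p6. The counting tool, its strand setting and its annotation are not stated in those sources.

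The values the authors deposited are log2 CPM. They follow the voom formula, and each one converts to whole reads to within 0.001; CPM and reads in the text were computed from them. Libraries held 6885680 to 11952088 reads. Of 13225 genes in the table, the lowest had 14 reads over all libraries. No further filter on low values was used in the main fit, while the length comparisons took coding genes above a minimum mean level.

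Limma 3.58.1 (R 4.3.3) was fitted to the deposited values of all genes in all 20 libraries, with 1 mean for each group and a variance prior that follows mean expression. P-values are 2-sided, adjusted by Benjamini-Hochberg over all genes of a comparison and called under 0.05. Values after ± are limma standard errors, except SDs where so named. The fit was tested on simulated data. The p-values weigh a difference between groups against the spread between mice within groups, pooled over the 4 groups. The labels do not say whether mice of a group shared a cage or an exposure session, and such sharing is not covered.

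The members, the 22 gene lists and the length comparison were chosen with earlier results of these data known. The 593 short and 2516 long coding genes of that comparison had a mean log2 CPM of at least 5. Named genes are called members, with the value in every mouse for the 6 smallest p-values of a comparison, the 5 highest, lowest and most variable members, all measured paralogs, Mir155hg, and up to 4 called genes per list. Results of some genes are not reported here. Any other gene named was chosen after its values were seen, as were the values of Rps27 in every mouse and its pairing with Rps27l.

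Lengths are those of the shortest coding transcript with a CCDS tag in GENCODE M21. Copies were sought with blastn 2.17.0, and promoters and miR-155 come from RefSeq tables. For the length trend, loess with a span of 0.5 was fitted in each library to 8638 coding genes whose mean log2 CPM was 3 or more. Ribosomal protein genes that reached this limit were among them, so a shift they share is partly removed with the trend. The alternatives were other variance priors, filters on low values, a pseudocount of 1 CPM, quantile normalization, median centring, voom weights, array weights, the compared groups alone, the mouse code letter, length removal and left-out libraries. Tables were handled in Python 3.11.15 with pandas 2.3.3.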

Additional observations from a re-analysis of the deposited data

Results flagged for a closer look

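Of 48 groups of 5 mice examined, for some of the named genes and for the share of reads, 2 held a mouse far from the other 4. Chance alone gives about 1 in 20 where values are normally distributed. Rps18 measured 245.8 CPM in smoke-exposed WT mouse IIa5, against 291 to 305.9 CPM in the other 4 smoke-exposed WT mice. Rpl24 measured 1.347 CPM in air-exposed miR-155 KO mouse IIIb2, against 0 to 0.084 CPM in the other 4 of that group. The value in IIIb2 rests on 10 reads, so the rate of 1 in 20 need not hold for Rpl24.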

How the results depend on the processing

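For smoke in WT mice, the count of 13 called genes was 28 (27 higher, 1 lower) under quantile normalization, 5 (4 and 1) without the variance trend, 21 (20 and 1) after median centring, 27 (25 and 2) with array weights and 8 (3 and 5) with the length trend removed. For smoke in miR-155 KO mice, the count was 4 without the 3 air libraries with most genes at 0 reads, in place of 11, and 1 of the 4, Rpl36al, was not among the 11. That fit kept the mice IIIa5 and IIIb1 alone in the air-exposed miR-155 KO group. Between the strains after smoke, the count of 2 was 0 without the variance trend and with the length trend removed, 1 with quantile normalization, median centring or the mouse code letter, 4 with voom weights or without those 3 libraries, and 18 with array weights, all lower. Removing the length trend took the median change to −0.0356 for smoke in WT, −0.0126 between the strains after smoke and −0.0600 for the interaction. That trend was fitted to coding genes that included ribosomal protein genes. Leaving out 1 mouse at a time, counts ran from 5 to 20 for smoke in WT, 10 to 16 for smoke in miR-155 KO, 0 to 1 between strains after air and 0 to 4 after smoke, and the interaction stayed at 0. The cause of these shifts was not tested. Except for the length removal described above, the counts of these refits are given without the share of all genes called in the same fit. Of the 26 calls, 7 held under every alternative and left-out mouse, among them Rpl10 and Rpl23a for smoke in miR-155 KO and Rps2, Rpl10, Rpl41 and Rps27l for smoke in WT mice. Over 598 refits of the 26 calls, 475 kept the call, 123 lost it and 0 changed sign. No paired analysis was possible because each mouse code occurs once. Depth limits Rpl24, Rpl39l and Rpl36al, which had few reads.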

Other observations

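The ratio of Rps2 to Rpl10 reads, chosen after the values were seen, was 0.678 to 0.811 in smoke-exposed miR-155 KO mice, against 0.425 to 0.566 after air. In WT mice it was 0.677 to 0.974 after smoke, against 0.438 to 0.496 after air. In both strains every smoke-exposed mouse lay above every air-exposed mouse, and no test was made since the pair was picked on these values. Among the 21 pseudogene-like rows, kept apart from the ribosomal protein genes, Rplp0.ps1 was the sole limma call, higher in miR-155 KO than in WT mice by a log2 change of 4.01 ± 0.80 after air (adjusted p = 0.0136) and 3.62 ± 0.80 after smoke (adjusted p = 0.0138). Its mean log2 CPM over all mice was −1.82, so it rests on few reads.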
